A study of Mus musculus with 6 samples.

Results

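The genes described here encode 10 transcription factors and cofactors that act on muscle fiber type, namely Sox6, Tbx15, Prox1, Tead1, Tead4, Nfatc1, Nfix, Nfia, Vgll2 and Bcl6. Each gene was followed through the regions called by ChIP-seq for Maf, a basic leucine zipper transcription factor, and for H3K27ac, a histone acetylation that marks promoters and enhancers in use. A region belonged to a gene when it overlapped the gene itself or lay within 50 kb of one of its transcript starts in the GENCODE annotation of the mouse genome GRCm38, and this stretch is called the locus below. By this rule the 10 loci held 16 of 5485 Maf peaks and 175 of 52531 H3K27ac regions. Chromatin came from nuclei of gastrocnemius and quadriceps muscles of wild-type C57BL/6N mice at 2 months of age, with no treatment and no second genotype, and the fixed and sheared material was divided between the Maf and the H3K27ac antibody. There were 2 biological replicates for each target, and 2 input samples that were not analysed here.

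Slow and fast fibers of skeletal muscle differ in their myosins, calcium handling and metabolism, and a small set of transcription factors keeps each state in place. Sox6 and Nfix repress genes of slow fibers, Tbx15 is linked to glycolytic fast fibers, and Nfatc1 carries the calcineurin signal of slow nerve activity to the nucleus. Tead1 and Tead4 bind the M-CAT element of muscle genes and need cofactors such as Vgll2. Nfia belongs with Nfix to the nuclear factor I family, Prox1 is a homeobox factor of slow fibers and of lymphatic endothelium, and Bcl6 is a zinc finger repressor known best from lymphocytes. Maf proteins bind a long palindrome, one arm of which reads TGCTGA and is often followed by C.

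The sequences under the Maf peaks are shown first, so that the motifs described further on can be read in them. The following are the highest peaks in the list at each of the 5 genes that had one. They are written on the plus strand of GRCm38, and capitals mark TGCTGA or its reverse complement TCAGCA. The Tbx15 peak has neither, and capitals there mark TGACTCA, the AP-1 site, which forms the middle of a Maf palindrome.
Sox6 peak 5, chr7:115511924-115512204: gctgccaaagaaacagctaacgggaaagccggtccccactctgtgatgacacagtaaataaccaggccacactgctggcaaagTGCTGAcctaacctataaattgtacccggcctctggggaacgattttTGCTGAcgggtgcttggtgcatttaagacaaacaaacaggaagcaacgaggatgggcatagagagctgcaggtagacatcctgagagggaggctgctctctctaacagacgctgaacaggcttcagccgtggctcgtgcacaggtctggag
Nfia peak 2, chr4:97773026-97773306: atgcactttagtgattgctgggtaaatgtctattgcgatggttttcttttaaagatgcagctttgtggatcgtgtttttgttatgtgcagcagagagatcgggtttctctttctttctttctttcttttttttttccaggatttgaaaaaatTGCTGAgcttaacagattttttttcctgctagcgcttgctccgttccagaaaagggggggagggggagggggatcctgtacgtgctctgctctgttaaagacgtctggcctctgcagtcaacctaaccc
Tead1 peak 1, chr7:112680015-112680295: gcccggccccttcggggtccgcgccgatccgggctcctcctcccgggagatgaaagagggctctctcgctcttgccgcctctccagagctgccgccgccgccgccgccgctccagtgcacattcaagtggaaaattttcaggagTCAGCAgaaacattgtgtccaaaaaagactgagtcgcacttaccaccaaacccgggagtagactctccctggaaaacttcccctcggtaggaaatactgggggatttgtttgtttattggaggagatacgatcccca
Tbx15 peak 1, chr3:99293895-99294175: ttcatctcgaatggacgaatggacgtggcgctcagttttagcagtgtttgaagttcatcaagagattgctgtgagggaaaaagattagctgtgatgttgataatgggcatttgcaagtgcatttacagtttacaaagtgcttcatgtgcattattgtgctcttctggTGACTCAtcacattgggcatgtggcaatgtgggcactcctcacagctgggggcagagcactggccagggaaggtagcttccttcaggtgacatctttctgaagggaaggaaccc
Nfix peak 1, chr8:84710112-84710392: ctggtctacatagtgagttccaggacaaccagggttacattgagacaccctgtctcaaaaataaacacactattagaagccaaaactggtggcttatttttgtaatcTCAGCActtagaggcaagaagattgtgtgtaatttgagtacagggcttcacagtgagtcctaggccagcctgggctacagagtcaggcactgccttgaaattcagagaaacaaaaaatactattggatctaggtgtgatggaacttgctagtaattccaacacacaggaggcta

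The 3 other peaks with the longer TGCTGAC are shown as 30 bases around it, each read on the strand that carries the motif (minus for Sox6 peak 3, plus for the other pair).
Sox6 peak 3, chr7:115750645-115750674: gtgaggaggaaaTGCTGAcacactggaaat
Sox6 peak 7, chr7:115477415-115477444: aacgcagcaattTGCTGAcagtttcacaac
Nfia peak 4, chr4:98037253-98037282: gttgttcttacaTGCTGActacgcttctcc

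The lists hold positions only. Replicate 1 for Maf listed 74 peaks of 181 bp each and replicate 2 listed 5467 of 281 bp each, while the H3K27ac lists held 44887 and 44987 regions. No read counts are given, so the depth of the samples is unknown and no test between samples was made. The score of every peak is 1. The place of a peak in the Maf list of replicate 2 was therefore taken as a stand-in for its strength, which the list itself does not state. A sort of the nuclei for these samples is not given in the sources used here. The markers listed for fast fibers were Acta1, Ckm, Myh4, Atp2a1 and Actn3. Regions of H3K27ac stood no farther than 1 kb from a start at all 5 of them and at 1 of 3 slow fiber markers. The same held at 2 of 2 satellite cell markers and 2 of 3 Schwann cell markers, with Myf5 and Sox10 in replicate 2 only. It also held at 3 of 3 markers each of endothelial, lymphatic endothelial, fibro-adipogenic and macrophage cells. Over all genes, 59.6% had H3K27ac that close to a start. A Maf peak lay equally close at 4 of the 5 fast fiber markers, all but Acta1, against 5.58% of all genes. The paper names these 4 among the genes it found most strongly bound by Maf in the same data. Their count was thus known beforehand and is no independent support. Of the other lists, only Col1a1 of the fibro-adipogenic cells had a Maf peak that close. H3K27ac at a gene described below can thus come from fibers or from other cells of the muscle, and fewer cells with a mark cannot be told apart from less of the mark per cell.

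Maf peaks were found at Sox6, Nfia, Tead1, Tbx15 and Nfix, and none lay in the loci of Prox1, Tead4, Nfatc1, Vgll2 and Bcl6. All 16 peaks came from replicate 2. Replicate 1 had 0 of its 74 peaks in these loci, which allows a share of up to 4.05% by counting error alone. In the merged lists these loci held 0.292% of all Maf peaks, so 0 in a list of 74 does not set them apart. Counted by gene rather than by peak, 0.634% of all 21911 protein-coding genes had a replicate 1 peak in the locus. With both lists merged, 5 of the 10 genes had a Maf peak, against 32.2% of all protein-coding genes. These loci are long, with a median of 178000 bp against 104000 bp over all genes, and the share of genes with a peak was higher in longer loci. The genes were therefore read against others of like length. Of the 4 genes with loci under 150 kb (Prox1, Tead4, Vgll2 and Bcl6), 0 had a peak, where 29.8% of such genes did. Of the 4 genes with loci of 150 to 300 kb (Tbx15, Tead1, Nfix and Nfatc1), 3 had a peak, against 43.5%. Both genes with loci of 300 kb or more, Sox6 and Nfia, had peaks, against 50.9%. No test was made on these counts of 2 to 4 genes.

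**Figure D1:**
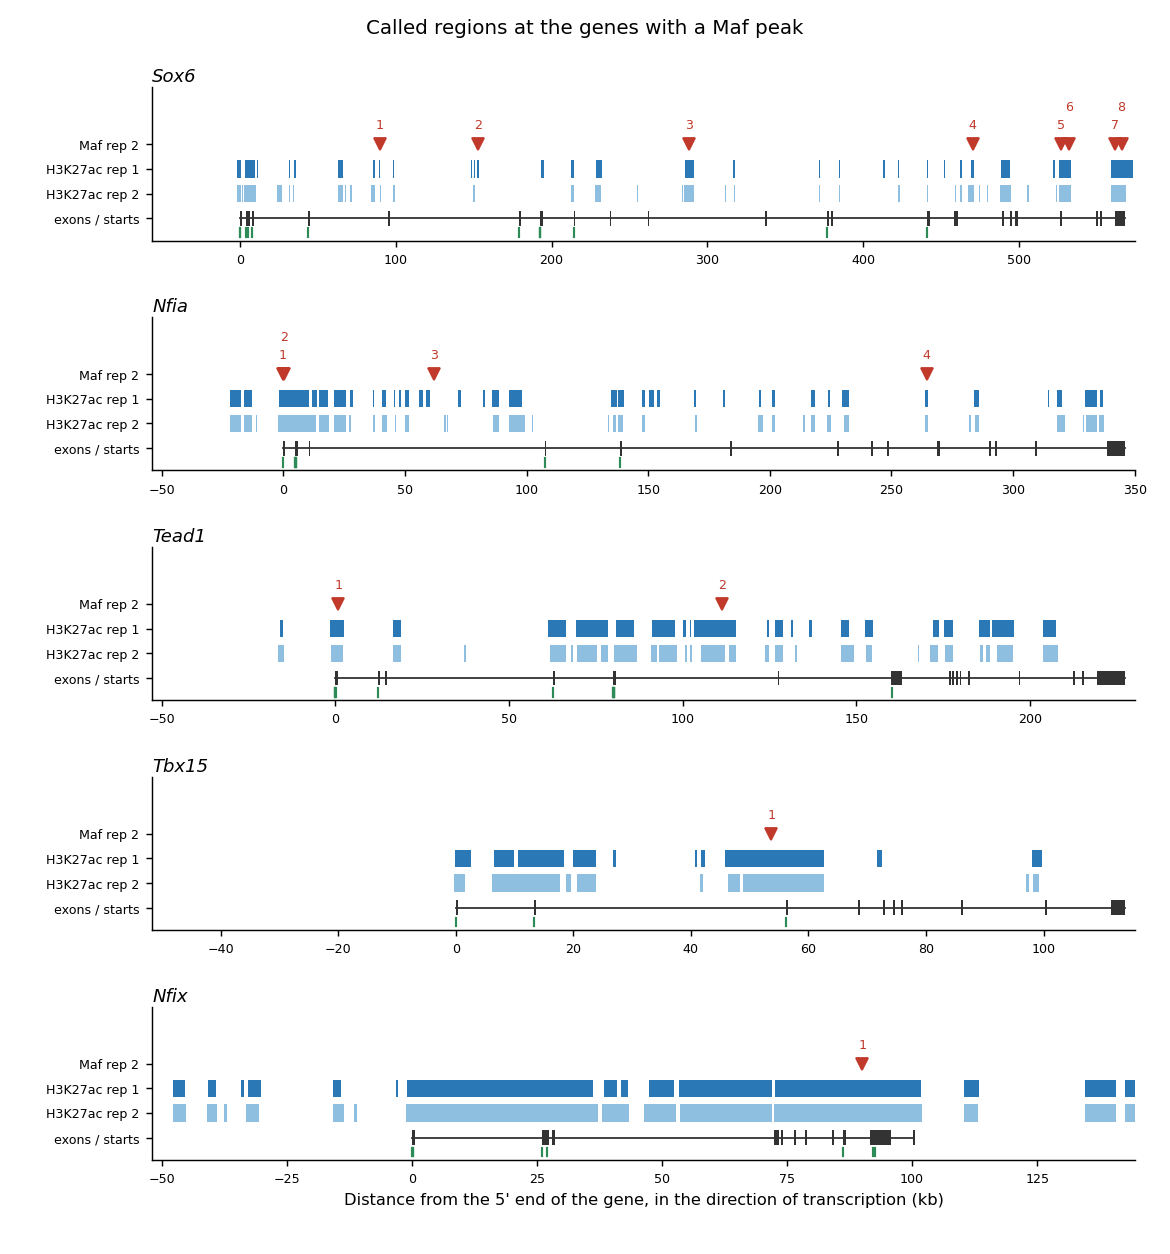
Called regions at the 5 genes with a Maf peak, drawn in the direction of transcription with the distance from the 5′ end of the gene in kb. Red triangles are Maf peaks of replicate 2 with their numbers, dark and light blue bars are H3K27ac regions of replicates 1 and 2, black boxes are exons of all transcripts, and green ticks are transcript starts. The 8 Sox6 peaks lie from intron 1 to the last exon, and 4 of them stand within the last 50 kb of the gene.

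Sox6, the repressor of slow fiber genes, had 8 Maf peaks, more than any of the other 9 genes. Its locus spans 618 kb, and the density of 1.29 peaks per 100 kb stood at the 91st percentile of all protein-coding genes. Of the 813 genes with loci of 300 kb or more, 1.11% had as many peaks or more, Sox6 included. The intron peaks of Sox6 were known when the genes were chosen. These ranks therefore describe the locus and do not test whether its count is unusual. In the whole genome 6 genes had more, from 9 at Nr4a1 and Rora to 10 at Gm37240, 11 at Rbfox1, 14 at Fgfr2 and 20 at Gm20388, and the last 4 of these have loci of 1440 to 4480 kb. Atp8a1, Celf2, Gse1 and Lrrfip1 were among the genes that also had 8.

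None of the Sox6 peaks lay near a start. The closest, peak 2, was 26.0 kb from a transcript start, and the other 7 were between 29.2 and 125 kb away. Numbered along transcription, peak 1 fell in intron 1 (chr7:115948675-115948955, position 605 in the list), peak 2 in intron 2 (chr7:115885678-115885958, position 5086) and peak 3 in intron 4 (chr7:115750521-115750801, position 713). Peak 4 fell in intron 10 (chr7:115568527-115568807, position 1871). Peaks 1 to 4 were thus single and 63.0 to 182 kb apart, with peak 4 already 470 kb from the 5′ end of the gene.

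Peaks 5 and 6 shared intron 14, 5.41 kb apart. Peak 5 (chr7:115511924-115512204) was at position 10 of the whole replicate 2 list, which is the highest of the 16 peaks, and peak 6 (chr7:115506517-115506797) was at position 1537. Neither was called in replicate 1, despite the high place of peak 5. Peak 7 lay in intron 16, the last one (chr7:115477281-115477561, position 1167). Peak 8 lay in exon 17, within the 3′ untranslated region (chr7:115473102-115473382, position 668), 4.18 kb from peak 7. A further Maf peak (chr7:115466788-115467068, position 3858) lay 3.94 kb beyond the 3′ end of the gene, outside the locus as defined here, in the same H3K27ac region as peaks 7 and 8. Peaks 5 and 6, and peaks 7 and 8, thus stood in close pairs, with 29.2 kb between peaks 6 and 7. Peak 5 lay 56.6 kb from peak 4.

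Nfia, a nuclear factor I gene, had 4 Maf peaks, and a pair of them flanked its 5′ end. Peak 1 (chr4:97772332-97772612) was centred 262 bp upstream of the start at position 655, and peak 2 (chr4:97773026-97773306) 432 bp downstream of it at position 542. The pair was 694 bp apart, and the antisense gene E130114P18Rik overlaps both. Peak 3 (chr4:97834694-97834974, position 1378) was in intron 2, 45.3 kb upstream of the nearest start. Peak 4 (chr4:98037149-98037429, position 3042) was in intron 6, 126 kb from a start. The promoter pair thus stood higher in the list than both intron peaks.

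Tead1, which binds M-CAT elements, had 2 peaks. Peak 1 (chr7:112680015-112680295, position 712) was in intron 1, 645 bp downstream of a start. The gene 2310014F06Rik overlaps it. Peak 2 (chr7:112790590-112790870, position 2526) was in intron 2, 31.2 kb from a start. The promoter peak was again the higher of the pair. Over all genes, 5.58% had a Maf peak within 1 kb of a start, and of the 10 genes here 2 did, Nfia and Tead1.

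Tbx15, a T-box gene of glycolytic fibers, had 1 peak in intron 1 (chr3:99293895-99294175, position 754), 2.48 kb upstream of an inner transcript start and 53.7 kb from the 5′ end of the gene. Nfix, the other nuclear factor I gene, had 1 peak in intron 10, its last (chr8:84710112-84710392, position 1685). That peak was 2.03 kb upstream of the start of a noncoding transcript, and 63.1 kb from the nearest start of a protein-coding one. Within 10 kb of a start, 4 of the 10 genes (Nfia, Tead1, Tbx15 and Nfix) had a peak, against 12.9% of all genes. This count rested on inner starts. It was 3 with protein-coding transcripts only, where Nfix dropped out, and 2 with only the 5′ end of each gene, where Nfia and Tead1 were left.

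In the replicate 2 list the 16 peaks stood at positions 10 to 5086 with a median of 960.5, at 17.6% of the list. In the first 25% of the list stood 9 of them, and in the first 50% stood 14. The lower pair was Sox6 peak 2 and Nfia peak 4. Of these 16, 15 were inside their gene and 13 in an intron of its principal coding transcript. The peak outside was Nfia peak 1.

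**Figure D2:**
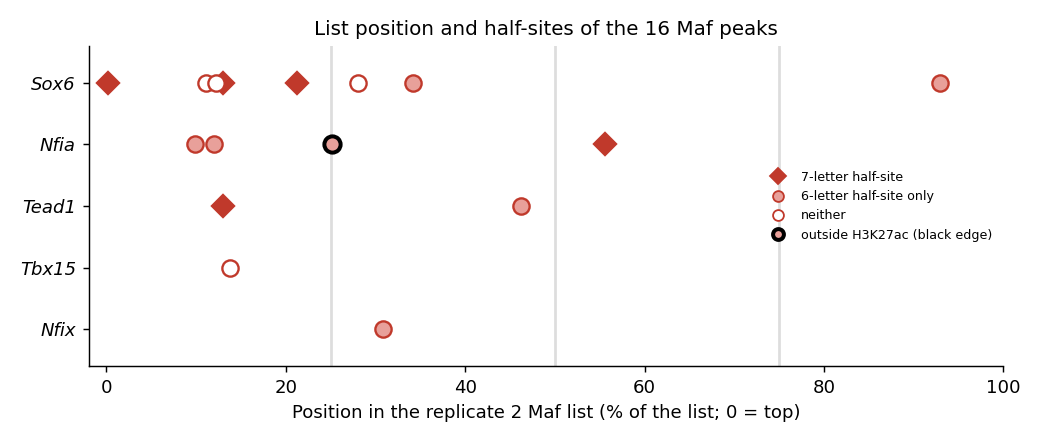
Position of each of the 16 Maf peaks in the replicate 2 list, in percent of the list with 0 at its top, by gene. Diamonds hold TGCTGAC (7 letters), filled circles TGCTGA only (6 letters), open circles neither, and a black edge marks the peak outside H3K27ac; 14 of the 16 lie at or before 50%.

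Peaks of Maf at these genes lay in acetylated chromatin in all but 1 case. H3K27ac covered 15 of the 16 peaks, or 93.8% (95% Clopper-Pearson interval 69.8 to 99.8, counting error only), and 69.2% of all Maf peaks. The interval takes the peaks as independent, which they are not. Of the 16, 8 are at Sox6, chosen with its intron peaks known, and the 15 marked ones lie in 12 regions. The share of all peaks with the mark rises towards the top of the list, where these peaks stand. It was 88.3% in the first 50%, where 13 of 14 peaks here had it, and 91.4% in the first 25%, where 9 of 9 did. The difference in share was thus smaller when the peaks were set beside others from the same portion of the list.

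The acetylated stretch at Sox6 differed from peak to peak. Peak 1 lay in a region of 0.895 kb in replicate 1 and 0.66 kb in replicate 2, while peak 2 had 0.501 kb in replicate 1 and none in replicate 2. Peak 3 had 6.06 and 6.44 kb, and peak 4 had 2.38 and 4.01 kb. These 4 peaks thus had separate regions of very unequal length. Peaks 5 and 6 shared one region of 7.80 and 7.78 kb. Peaks 7 and 8 shared a stretch of 15.1 kb after merging, the longest at Sox6, with regions of 14.0 kb in replicate 1 and 9.59 kb in replicate 2 over the peaks.

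At Nfia, peaks 1 and 2 lay in a promoter region of 12.4 kb in replicate 1 and 15.7 kb in replicate 2, and peak 4 in one of 1.19 and 1.10 kb. Nfia peak 3, at position 1378, was the peak outside H3K27ac in both replicates. The Tead1 promoter peak had 3.99 and 3.56 kb, and the intron peak 12.3 and 7 kb. The Tbx15 peak had 16.8 and 13.8 kb, and the Nfix peak 29.2 and 29.7 kb. Apart from Sox6 peak 2, every marked peak had H3K27ac in both replicates, 14 peaks in all.

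Genes without a Maf peak still carried H3K27ac at a start. Nearest to a Maf peak was Nfatc1 on chromosome 18, the calcineurin target, at 53.5 kb from a start, just past the limit of 50 kb. Vgll2 (chr10:52022502-52028471), the Tead cofactor, followed at 76.6 kb and the repressor Bcl6 (chr16:23965052-23988852) at 84.4 kb. Prox1 (chr1:190118035-190170714) was 209 kb and Tead4 (chr6:128224288-128300823) 463 kb away. With the limit at 100 kb, Nfatc1, Vgll2 and Bcl6 gained peaks and the count of genes rose from 5 to 8. Prox1 and Tead4 had none under any of the alternatives tried.

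**Figure D3:**
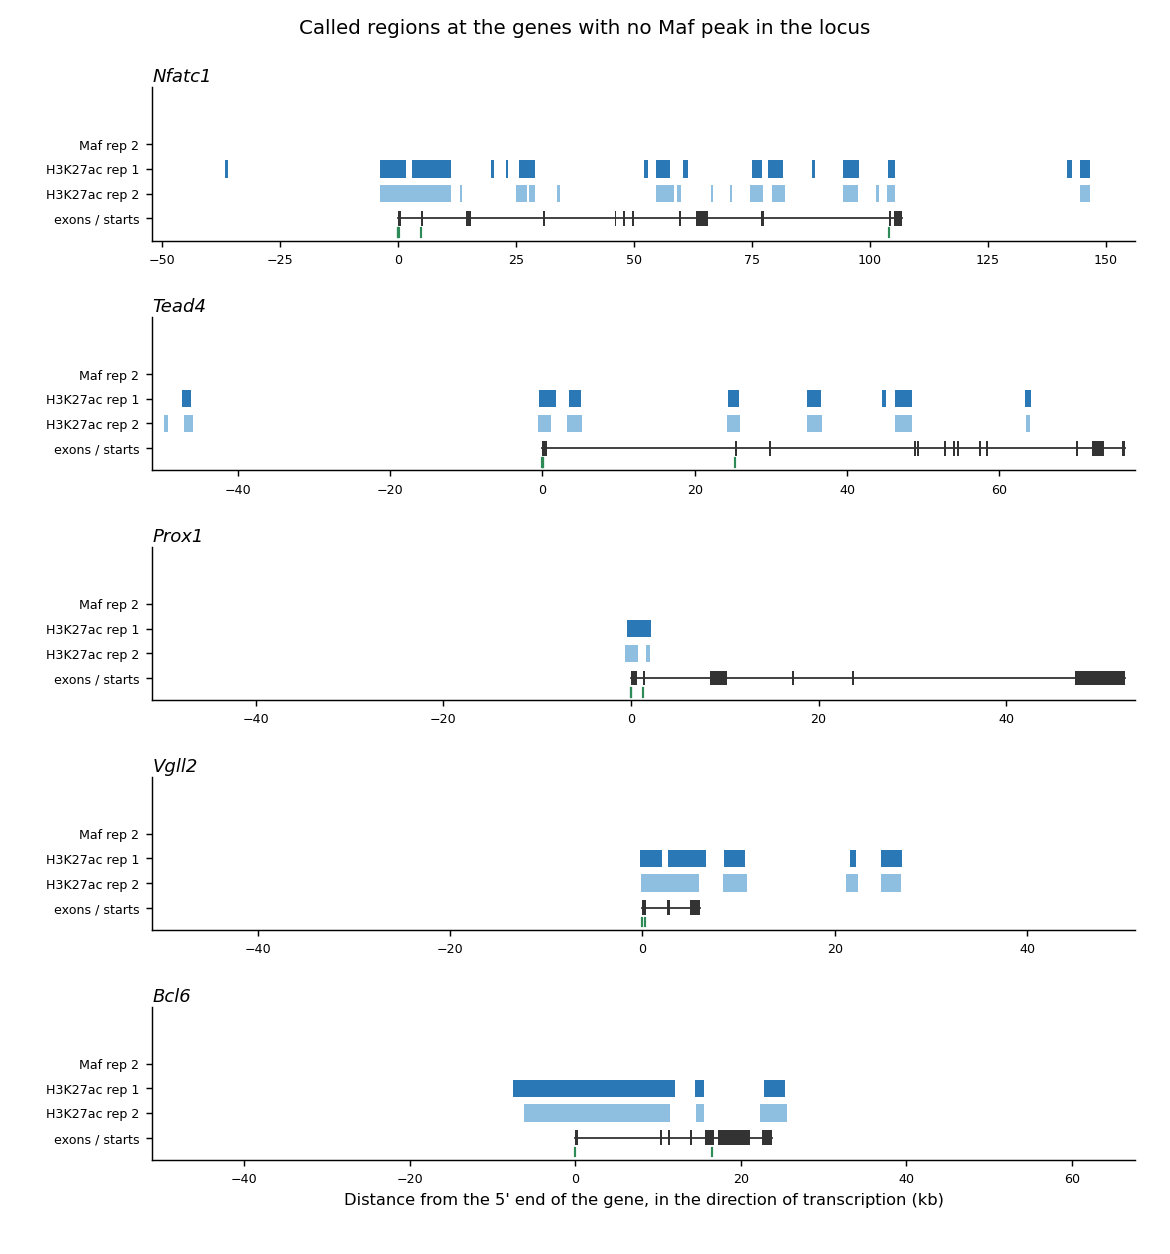
Called regions at the 5 genes with no Maf peak in the locus, drawn as for the genes with one, with the distance from the 5′ end in kb, H3K27ac in dark blue (replicate 1) and light blue (replicate 2), exons in black and transcript starts as green ticks. The Maf row is empty in all 5, and each gene has H3K27ac at its 5′ end, from 2.37 kb at Tead4 to 19.6 kb at Bcl6 after merging.

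All 10 genes had H3K27ac within 1 kb of a transcript start, in each replicate alone, against 59.6% of all genes. The longest region within 1 kb of any start, after merging, was 38.3 kb at Nfix, with 37.3 kb in replicate 1 and 38.3 kb in replicate 2. Bcl6 had 19.6 kb (19.6 and 17.7 kb), Tbx15 had 16.8 kb (16.8 and 15.8 kb), Nfia had 15.7 kb (14.1 and 15.7 kb) and Nfatc1 had 15.1 kb (13.9 and 15.1 kb). A replicate with several calls under 1 merged region counts here by their sum. These 5 genes thus had a broad acetylated region at a start, with or without Maf, and the one of Tbx15 was at the inner start next to its Maf peak. Sox6 followed with 7.15 kb (6.89 and 7.15 kb), Vgll2 with 6.83 kb (6.23 and 6.05 kb) and Tead1 with 6.53 kb (5.33 and 6.53 kb). Prox1, with 2.71 kb (2.55 and 1.84 kb), and Tead4, with 2.37 kb (2.23 and 1.80 kb), had short ones.

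The share of the locus under H3K27ac ranged from 2.64 to 62.1% between the genes and differed by at most a few percentage points between replicates. Nfix, where replicate 1 covered 58.6% and replicate 2 61.1%, stood at the 99.9th percentile of all genes with 62.1% after merging. Beside the promoter region, stretches of 29.7 kb at its 3′ end and 18.5 kb in intron 2 made up much of this. Tead1 had 26.7 and 25.4% (30.0% merged), Tbx15 had 23.7 and 21.7% (25.3%), and Nfia had 20.1 and 19.7% (23.7%). Nfatc1 had 18.3 and 18.8% (22.0%) and Bcl6 19.9 and 18.8% (20.5%). These 6 genes stood between the 86.7th and the 99.9th percentile of all genes, whether or not Maf was called there.

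Lower values were found at Sox6, with 10.4 and 11.9% (13.4% merged), at Vgll2, with 11.2 and 11.8% (12.7%), and at Tead4, with 9.42 and 9.24% (10.6%). Prox1 was lowest at 2.48 and 1.79% (2.64%). The median over the 10 genes was 21.2% and over all genes 5.41%. Long loci have lower coverage as a rule, and among genes with loci of 300 kb or more the median was 1.79%. Within this class Sox6 stood at the 93.5th percentile and Nfia at the 98.8th. Prox1 was the only gene below the median of its class, at the 35.4th percentile. The promoters of Lyve1, Flt4 and Pdpn, the listed lymphatic endothelial markers, were acetylated. So were those of all listed endothelial, fibro-adipogenic and macrophage markers. The part of lymphatic endothelial cells in the Prox1 region was not tested.

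**Figure D4:**
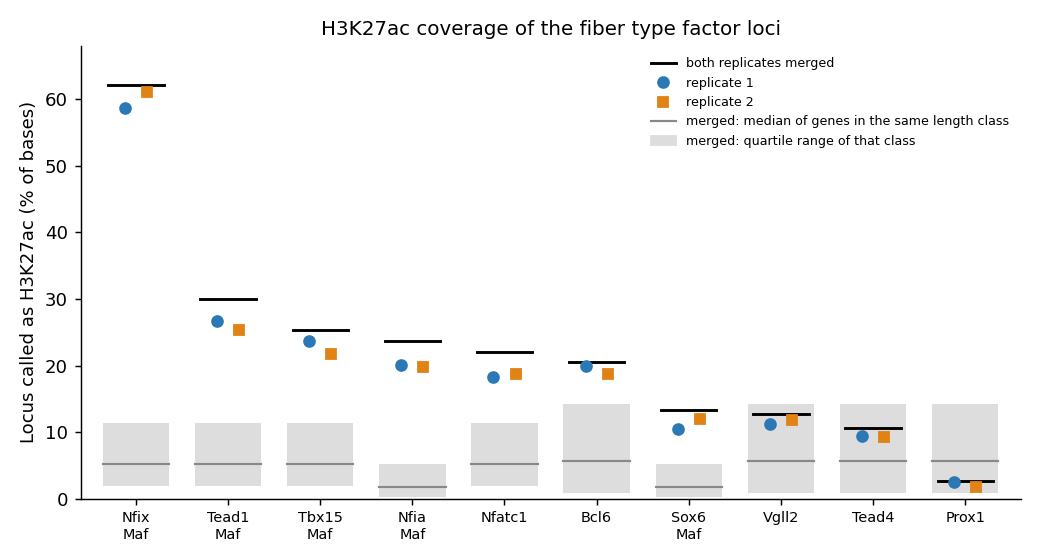
Share of each locus called as H3K27ac, in percent of its bases, for replicate 1 (circles), replicate 2 (squares) and both merged (black line), with the gray box and line giving the quartile range and median, after merging, of all genes in the same class of locus length. Genes with a Maf peak have Maf written under their name; Nfix reaches 62.1% and Prox1 2.64%.

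By number, Nfia had 36 H3K27ac regions in replicate 1 and 34 in replicate 2, Sox6 had 29 and 34, and Tead1 had 21 and 27. Nfatc1 had 16 and 15, Nfix 15 and 14, Tbx15 10 and 9, and Tead4 8 and 8. Vgll2 had 5 and 4, Bcl6 3 and 3, and Prox1 1 and 2. The counts mostly followed the length of the locus, and the few regions of Nfix and Bcl6 were long ones. In all there were 144 and 150 regions, and 175 after merging, of which 107 (61.1%) were called in both replicates, against 67% in the whole series. The lowest shares in both were 38.1% at Nfatc1 and 50% at Sox6. A Maf peak lay in 12 of the 175, or 6.86%, against 6.87% in the whole series. Of these 12, 6 were at Sox6, where 14.3% of 42 regions held a peak.

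In Sox6 the regions were spread over 12 introns, with 7 in intron 2 of 142 kb, 5 in intron 1 of 51 kb, and 4 each in introns 4, 7 and 10. The Sox6 promoter region itself, and 7.11 kb of H3K27ac in intron 11, had no Maf peak. In Nfia 25 of the 43 merged regions lay in intron 2, which is 173 kb long. In Tead1 intron 2 held 12 of 25 and intron 1 held 6. The acetylated regions of these 3 genes were thus mostly intronic, and Maf was called in a minority of them.

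The short Maf motif TGCTGA, looked for on either strand of the central 200 bp, was in 12 of the 16 peaks, or 75% (interval 47.6 to 92.7), against 46.2% of all Maf peaks. This interval and those for the other motifs also take the 16 peaks as independent, although 8 are at Sox6. Of 32 windows 1000 bp to either side of the same peaks, 3 held it. As with acetylation, the share over all peaks was higher at the top of the list, at 58.3% in its first 50%, where 10 of 14 peaks here had the motif, and at 63.8% in its first 25%, where 6 of 9 did. The longer TGCTGAC was in 5 peaks, or 31.2% (interval 11 to 58.7), against 20.9% of all peaks and in 0 of the 32 windows beside them, and TGCTGA is part of it. These 5 were Sox6 peaks 3, 5 and 7, Tead1 peak 1 and Nfia peak 4. Sox6 peak 5 held 2 copies on the same strand, 54 and 7 bp before its centre as the plus strand is printed above.

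The 4 peaks without TGCTGA were Sox6 peaks 1, 6 and 8 and the Tbx15 peak. The Tbx15 peak had a Maf palindrome with at most 2 mismatches instead, and Tead1 peak 2 had one as well, together 2 of 16 against 11.8% of all peaks. These same peaks had the AP-1 site TGACTCA (9.90% of all peaks), which at Tbx15 lies inside the palindrome. At Tead1 peak 2 it lies apart from it.

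Sites of the Sox, Nfat, nuclear factor I, Tead and T-box factors were looked for in the same windows. The E-box and the Mef2 site, which belong to other factors, were added, and no site of Prox1 or Bcl6 was searched. The Sox core ACAAT was in 6 of 16 peaks (37.5%, interval 15.2 to 64.6), against 18.6% of all Maf peaks, and in 11 of the 32 windows beside these peaks. It was in Sox6 peaks 3 and 5. The Nfat core GGAAA was in 8 peaks (49.8% of all peaks) and 15 of the 32 windows beside them. The nuclear factor I core TTGGC was in 4 peaks (38.8%), including the Nfix peak, and in 9 of the windows, and the nuclear factor I palindrome was in 0 of the 16 and 0 of all peaks. The M-CAT core CATTCC was in 1 (11%), which was Tead1 peak 2, and in 4 of the windows beside the peaks. The T-box site AGGTGTGA was in 0 of the central windows (0.602%). The printed Nfix sequence holds it across the edge of its central 200 bp, so it was not counted. The E-box CAGCTG was in 2 (19.5%), and the Mef2 site was in 0 (5.69%). For a motif in 0 of 16 peaks the interval reaches 20.6%. The cores of 5 and 6 letters occur often in any sequence, and a match marks letters only. The Nfix peak was the only one with at least 50% of its bases masked as repeats in the assembly, at 51.2%, as in 4.92% of all Maf peaks.

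Paralogs of the 10 genes and other regulators of fiber type were counted in the same way. Of 17 paralogs, 6 had a peak in the locus, 2 within 10 kb of a start and 0 within 1 kb, beside 32.2, 12.9 and 5.58% of all genes, and 14 had an acetylated promoter, beside 59.6%. Nfib had 6 peaks, the highest at position 886, Nfic 3 (position 984), the Tead cofactor Vgll4 2 (position 2277) and Prox2 1 (position 3978). With Nfia and Nfix, all 4 nuclear factor I genes thus had Maf peaks, a grouping chosen after values were seen. Their loci are of 155 kb or more, in length classes where 43.5 and 50.9% of all genes had a peak. Sox5, the closest relative of Sox6, had none in a longer locus of 1000 kb, and its 9 H3K27ac regions covered 1.40% of it.

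Among the other regulators and their partners, 16 of 22 genes had a Maf peak, against the 32.2% of all genes, with 7 within 10 kb of a start, 4 within 1 kb, and all 22 promoters acetylated. The highest positions were those of Hdac4, a repressor of Mef2 (642, 4 peaks), Eya3, a transcriptional cofactor (1145, 2 peaks), Rcan1, an inhibitor of calcineurin (1231, 1 peak), and Esrrg, a nuclear receptor of oxidative fibers (1250, 2 peaks). No gene of either list reached position 542 of Nfia peak 2, nor position 10 of Sox6 peak 5.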

How the data were processed

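The authors performed ChIP-seq with antibodies to Maf and H3K27ac. Trim Galore 0.6.4 trimmed the reads, and Bowtie2 aligned them, in version 2.3.4.3 in the methods and 2.3.2 in the submitters' processing notes. Apart from a false discovery rate given with the number of Maf peaks, settings of the peak caller, the use of input and the combining of replicates are not given in the sources used here. The deposited lists give positions and a score, which the authors left at 1 for every peak, so the order of the list was used. Only chromosomes 1 to 19, X and Y were kept. Replicates were merged, joining overlapping or touching regions, and 1 shared base counted as overlap. Genes came from GENCODE M21, whose build is that of the lists (no region exceeded a chromosome). Motifs were searched in the GRCm38 sequence of RefSeq. Intron numbers refer to the principal coding transcript. Members and gene lists were chosen with earlier results of these data known. Genes named beyond the members are, in each list, up to 4 whose peak stands highest, and the 10 with most Maf peaks; Sox5 and the comparison of all nuclear factor I genes were chosen after values were seen. The result for 1 motif is not reported here. Overlap and motif counting was tested on simulated data. Python 3.11.15, pandas 2.3.3, pysam 0.24.0, SciPy 1.17.1 and matplotlib 3.10.9 were used.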

Additional observations from a re-analysis of the deposited data

How the results depend on the processing

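No paired analysis was possible because the results are counts of called regions and come from no test. Leaving out each Maf replicate gave 0 to 5 genes with a Maf peak, 0 to 16 peaks, 0 to 15 with H3K27ac, 0 to 4 genes with a peak within 10 kb and 0 to 5 peaks with TGCTGAC, and every 0 is the list of replicate 1 alone. Leaving out each H3K27ac replicate gave 14 to 15 marked peaks, 10 acetylated promoters and 144 to 150 regions. With 50 kb around starts and no gene body, 10 peaks lay in the loci, 9 with H3K27ac and 1 with TGCTGAC, since 5 of the 8 Sox6 peaks and 1 of the 4 Nfia peaks lie farther inside. With 100 kb around starts, or with peaks given to the nearest start of any protein-coding gene, 8 genes had a peak. With only the 5′ end of each gene, 2 had one within 10 kb. The shorter TGCTGA was in 12 peaks. The other alternatives, namely 10 kb around the gene, both H3K27ac replicates together, overlap of 50% of the peak, the first 50% of the Maf lists, H3K27ac of the same number and the whole peak searched, stayed within 1.5 times the reported counts. So did protein-coding starts and RefSeq gene models, chosen after seeing the data. Depth is unknown, and a gene without a called peak is not shown to lack Maf.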
